A study of Mus musculus with 48 samples.

Results

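The comparison described here is the gain of surface ICAM1 among OKMS reprogramming intermediates that had not switched on Nanog. All 6 OKMS 3NG- libraries (CD44- ICAM1+, Nanog-GFP-) were set against all 6 OKMS 2NG- libraries (CD44- ICAM1-, Nanog-GFP-), 12 of the 48 libraries in the series. In each gate 3 libraries came from E-CAD+ cells and 3 from E-CAD- cells, and E-CAD status was a covariate. The cells were mouse embryonic fibroblasts (MEFs) from chimeric embryos, carrying a doxycycline-inducible OKMS cassette (Oct4, Klf4, c-Myc and Sox2 in that order, with the short form of Klf4) and a CAG-driven rtTA in the Sp3 locus, together with a GFP reporter in Nanog. They were mixed with an excess of wild-type MEFs, given doxycycline and vitamin C in medium with LIF, and sorted at day 10 according to the series design, although the growth protocol in the labels gives 10 or 15 days. Between 20000 and 100000 cells were sorted per sample. The labels do not say whether replicates are separate cultures, so p-values here measure only the spread between these libraries, which may be technical. Side comparisons used 6 MKOS libraries, from cells with the other cassette (c-Myc, Klf4, Oct4, Sox2, with the long form of Klf4). These cells were E-CAD+ and sorted through the same gates. They also used 2 libraries each of OKMS MEFs and TNG OKMS embryonic stem cells (ESCs), the targeted line before differentiation. Levels are given too for 3 libraries of OKMS E-CAD+ 3NG+ cells, which were Nanog-GFP+. The remaining groups, with 2 libraries each, were wild-type MEFs, OKMS induced pluripotent stem cells (iPSCs) without doxycycline, parental TNG ESCs and TNG MKOS ESCs.

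ICAM1 is an immunoglobulin-family adhesion molecule that binds leukocyte integrins. Its gene is a known target of NF-kB, of interferon signalling and of STAT3. CD44, the hyaluronan receptor, is abundant on fibroblasts, and E-CAD, encoded by Cdh1, is the adherens junction cadherin of epithelia and of ESCs. In reprogramming of fibroblasts these surface proteins are used to order intermediates. For MKOS the paper describes stepwise loss of CD44 and regain of ICAM1, accompanied by Nanog-GFP, a readout of the endogenous pluripotency network. For OKMS, delivered by transposon, it reports that most cells lost CD44 early and that ICAM1 did not clearly change. The gates compared here are separately sorted populations and not a time course.

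The Icam1 promoter window, from upstream of the annotated start to shortly past it, is shown because the gate was set on the product of this gene. It lies at chr9:21015690-21015989 on the plus strand (RefSeq, GRCm38.p6). The Socs3 window, chr11:117969317-117969616 on the minus strand, and the first of 3 Il1rn windows, chr2:24336610-24336909 on the plus strand, are shown because they held a match to one of the motifs searched, a choice made after the matches were seen. The windows of Serpinh1, Tmem176b and Stat3 held none. Capitals mark matches to TTCNNNGAA (a STAT-type motif), GGAANTTCC (an NF-kB-type motif) or TGANTCA (an AP-1-type motif), each of which reads the same on both strands.
Icam1: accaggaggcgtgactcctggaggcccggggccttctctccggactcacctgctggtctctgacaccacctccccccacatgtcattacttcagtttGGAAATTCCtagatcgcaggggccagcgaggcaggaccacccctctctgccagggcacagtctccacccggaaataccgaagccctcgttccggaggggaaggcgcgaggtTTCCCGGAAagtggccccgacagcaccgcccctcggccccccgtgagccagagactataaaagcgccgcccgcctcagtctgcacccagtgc
Socs3: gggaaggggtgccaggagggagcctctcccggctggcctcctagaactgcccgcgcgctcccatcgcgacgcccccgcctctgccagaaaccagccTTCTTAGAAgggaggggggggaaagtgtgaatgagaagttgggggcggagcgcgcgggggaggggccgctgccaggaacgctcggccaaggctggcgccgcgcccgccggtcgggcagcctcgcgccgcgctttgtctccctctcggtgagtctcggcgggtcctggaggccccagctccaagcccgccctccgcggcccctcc
Il1rn: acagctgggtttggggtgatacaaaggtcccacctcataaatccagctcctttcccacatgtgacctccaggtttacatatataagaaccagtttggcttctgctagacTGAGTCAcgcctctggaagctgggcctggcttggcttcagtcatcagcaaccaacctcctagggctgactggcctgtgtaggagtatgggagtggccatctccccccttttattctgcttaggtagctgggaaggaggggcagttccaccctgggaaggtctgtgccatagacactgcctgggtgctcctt
In the Icam1 window a GGAANTTCC match began at base 98 and a TTCNNNGAA match at base 209 of the 300 bases, counted from the 5′ end, and the matches did not overlap. Of 32851 promoter windows in the RefSeq table, 8.3% held TTCNNNGAA, 0.928% held GGAANTTCC, 7.81% held TGANTCA and 0.116% held both of the first motifs. The Socs3 window held TTCNNNGAA at base 97, and the first Il1rn window held TGANTCA at base 110. The other Il1rn windows held no match. Of the 23 genes named by rule, 16 had an entry. Counted by gene, and not by window as in the shares above, a TTCNNNGAA match was present for 4 of the 16 (Icam1, Socs3, D7Ertd143e and Hmgn5), including some that were lower in 3NG- cells. These are matches of letters only, and no binding was measured.

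The 12 libraries held 2868191 to 14174725 reads on transcripts, so that 3 reads, the level a count of 0 allows, corresponded to 0.212 to 1.05 CPM, that is, counts scaled to the reads on transcripts of each library. The replicate 3 library of every population stood apart. On the second principal component, which carried 18.1% of the variance, the 4 replicate 3 libraries lay between -85 and -29.2 and the other 8 between 11.1 and 51. The first component, with 25.8%, separated E-CAD+ from E-CAD- libraries. For this reason the counts of called genes are also given from replicates 1 and 2 only and with a term for replicate 3 in the fit, both chosen after seeing the data, as are the values of several single genes.

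**Figure D1:**
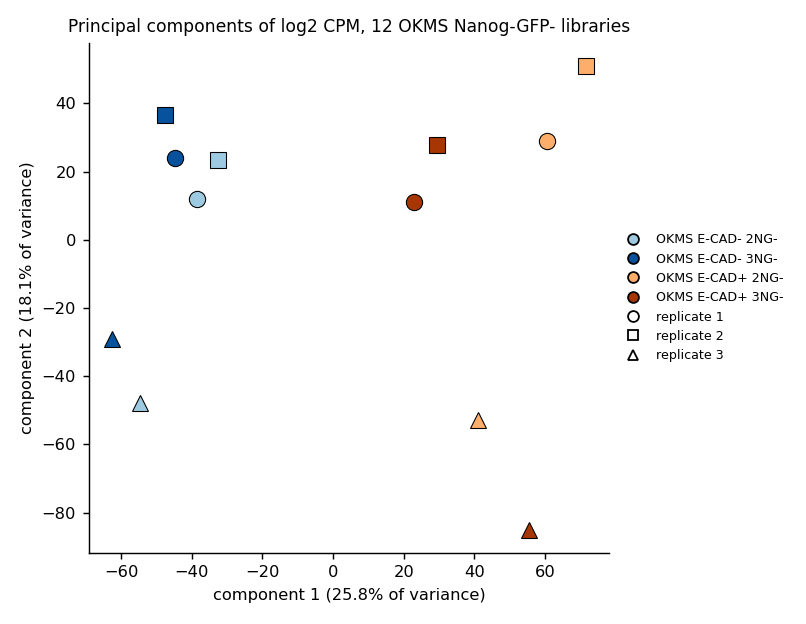
First and second principal components of log2 CPM for the 12 OKMS Nanog-GFP- libraries, with colour for the population and shape for the replicate. All E-CAD- libraries lie left of zero on component 1 and all E-CAD+ libraries right of it, and the 4 replicate 3 libraries lie below -29 on component 2.

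Across the 12 libraries the number of genes called between the gates depended on the fit, and few calls do not show that the gates are alike. In edgeR's quasi-likelihood test with E-CAD as covariate, 2 of 12240 genes (0.0163%) passed a Benjamini-Hochberg adjusted p of 0.05: Icam1 rose and Fabp5 fell, while 809 had an unadjusted p under 0.05. Over the same libraries DESeq2 called 54 of 12240 genes, edgeR without the filter on low counts 59 of 17386, and edgeR with a replicate block 50 of 12240. With a term for replicate 3, 53 genes (0.433%) passed, 35 higher and 18 lower in 3NG- cells. With replicates 1 and 2 only, 153 of 12212 genes (1.25%) passed, of which 110 (0.901%) were higher and 43 (0.352%) lower in 3NG- cells, and 45 of the 53 genes were among these 153, each with the same direction. The number of genes also depended on single libraries. It was 25 without OKMS E-CAD+ 3NG- replicate 3, 7 without OKMS E-CAD+ 2NG- replicate 3, 3 when OKMS E-CAD+ 3NG- replicate 1, OKMS E-CAD- 2NG- replicate 1 or OKMS E-CAD- 2NG- replicate 3 was left out, and 2 without any of the others, with Icam1 and Fabp5 called each time. For scale, 825 of the same 12240 genes (6.74%) differed between E-CAD+ and E-CAD- cells in this fit.

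Icam1 (chromosome 9, 21015940 to 21028814, plus strand) was close to undetected in the ICAM1- gate and present in every ICAM1+ library, which checks the sort labels and is not a separate finding. The E-CAD- 2NG- libraries held 1, 0 and 3 reads and the E-CAD+ 2NG- libraries 0, 0 and 2. The E-CAD- 3NG- libraries held 57, 33 and 51 reads (9.41, 11.5 and 13.9 CPM) and the E-CAD+ 3NG- libraries 144, 100 and 22 (12.9, 23.8 and 5.18 CPM). The gates did not overlap, and the lowest 3NG- library was E-CAD+ replicate 3. Summed over libraries, 407 reads against 6 gave a ratio of 78.8 (95% exact interval 35.9 to 216, counting error only). The ratio was 40.1 (15.3 to 149) in E-CAD- cells and 157 (42.9 to 1300) in E-CAD+ cells, with overlapping intervals. The fitted log2 fold change was 6.12 ± 0.68 (SE, edgeR, adjusted p = 4.3e-04), a value that depends on the prior count because the 2NG- libraries are at the floor. Icam1 and Fabp5 also passed in both alternatives for replicate 3.

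Fabp5, a cytoplasmic fatty acid-binding protein, was the gene that fell, and its libraries were the tightest of those named. Its level was 1089, 1369 and 1463 CPM in E-CAD- 2NG- cells and 680, 760 and 816 CPM in E-CAD- 3NG- cells. In E-CAD+ cells it was 1340, 1517 and 1243 CPM in 2NG- and 733, 803 and 757 CPM in 3NG-. Every 3NG- library was below every 2NG- library, replicate 3 included. The log2 fold change was -0.85 ± 0.09 (SE, edgeR, adjusted p = 4.3e-04), with -0.89 ± 0.13 in E-CAD+ and -0.82 ± 0.13 in E-CAD- cells. The gene lies on chromosome 3 (10012585 to 10016610, plus strand), and 95.0% of its reads mapped to a single place. Its call was lost, with an adjusted p of 0.17, when the spread was estimated over all 48 libraries.

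**Figure D2:**
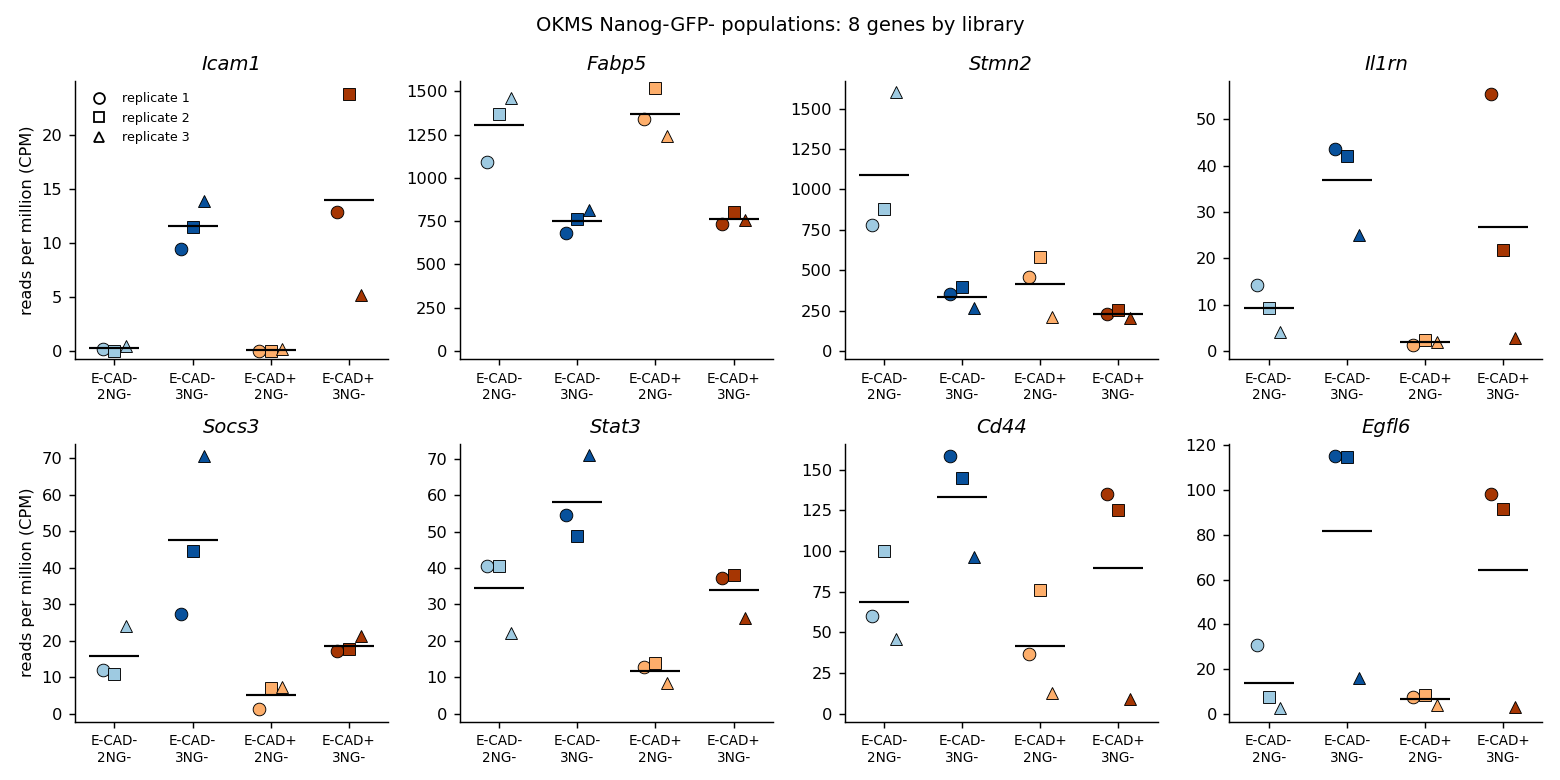
Levels in CPM of 8 genes in the 12 libraries, with the mean of 3 libraries as a bar and one symbol per replicate. Icam1 and Fabp5 separate the gates in every replicate, whereas Cd44 and Egfl6 differ in replicates 1 and 2 but not between the E-CAD+ replicate 3 libraries.

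None of the other sort markers or cassette factors passed the test over 12 libraries. Both gates are CD44-, yet Cd44 was 59.8, 100 and 46.1 CPM in E-CAD- 2NG- and 159, 145 and 96.1 CPM in E-CAD- 3NG- cells. In E-CAD+ cells it was 36.8, 75.8 and 12.5 CPM in 2NG- and 135, 125 and 9.18 CPM in 3NG-. Within each E-CAD state the replicate 3 library of 3NG- cells fell among or below the 2NG- values (96.1 CPM against up to 100 in E-CAD-, and 9.18 CPM in E-CAD+). The log2 fold change was 1.01 ± 0.45 (adjusted p = 0.72), and 1.03 ± 0.19 (adjusted p = 0.0040) with replicates 1 and 2 only, where Cd44 rose. OKMS MEFs held 307 ± 78 CPM (SD, n = 2), above all 12 libraries, whereas wild-type MEFs held 92.2 ± 38 CPM (n = 2), within their range. Cdh1 had a log2 fold change of -0.66 ± 0.37 and Nanog of -0.25 ± 0.31, both with adjusted p above 0.8, and Pou5f1, Sox2, Klf4 and Myc lay between 0.04 and 0.13. Whether reads from the cassette are counted with these factors was not tested.

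Socs3 and Stat3, of the LIF and STAT3 pathway, were among the 8 genes with the smallest p-values on the higher side. LIF binds its receptor with gp130, JAK kinases phosphorylate STAT3, and Socs3 is a direct STAT3 target that feeds back on the receptor. Socs3 was 12, 11 and 24.1 CPM in E-CAD- 2NG- and 27.2, 44.6 and 70.5 CPM in E-CAD- 3NG- cells. The E-CAD+ libraries held 1.36, 7.09 and 7.27 CPM in 2NG- and 17, 17.6 and 21.2 CPM in 3NG-. The gates did not overlap within either E-CAD state, which follows in part from picking the gene by its small p-value. Its log2 fold change was 1.66 ± 0.34 (adjusted p = 0.18 over 12 libraries, 0.0033 with a term for replicate 3 and 0.013 with replicates 1 and 2 only). Stat3 itself was 40.6, 40.5 and 22.2 CPM in E-CAD- 2NG- and 54.7, 48.8 and 71.1 CPM in E-CAD- 3NG- cells, and 13, 13.9 and 8.4 against 37.4, 38.1 and 26.4 CPM in E-CAD+ cells. It had a log2 fold change of 1.10 ± 0.23 (adjusted p = 0.18, and 0.010 with a term for replicate 3, but 0.10 with replicates 1 and 2 only). Of the 15 tested members of the list, 14 had a log2 fold change above 0 and the median was 0.37, beside 0.01 over all genes tested. None passed over 12 libraries, 2 (Socs3 and Stat3) with the term for replicate 3, and 1 (Socs3) with replicates 1 and 2 only. Lifr, the LIF receptor subunit, had 1.11 ± 0.43 and Il6st, which encodes gp130, 0.26 ± 0.26, neither called. The lean was not particular to OKMS, since the list median was 0.49 in MKOS E-CAD+ cells. Socs3 was 16.7, 20.7 and 16.4 CPM in MKOS 2NG- and 35.1, 43.9 and 23.3 CPM in MKOS 3NG- libraries. Stat3 overlapped between the MKOS gates, at 34.9, 28.8 and 18.4 CPM against 28.7, 44.2 and 31.5 CPM.

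Genes of the NF-kB list, which includes NF-kB subunits, and of the interferon list lay mostly above 0, but few passed. Of 21 tested NF-kB genes 18 had a log2 fold change above 0, with a median of 0.53. Over all genes tested, 6252 of 12240 lay above 0. The only member called over 12 libraries was Icam1, on whose product the gates were set, so its call says nothing about the list. Icam1 is also 1 of the 18 and counts towards the median. Il1rn, which is not on the NF-kB list, encodes the secreted antagonist of the interleukin 1 receptor. It was 14.2, 9.27 and 4.08 CPM in E-CAD- 2NG- and 43.6, 42.2 and 25 CPM in E-CAD- 3NG- cells. In E-CAD+ cells it was 1.36, 2.26 and 1.9 CPM in 2NG- and 55.6, 21.9 and 2.83 CPM in 3NG-, so that replicate 3 lay only just above the 2NG- level. Il1rn had a log2 fold change of 2.79 ± 0.55 (adjusted p = 0.14, and 0.0027 with a term for replicate 3). Among NF-kB list members in the fit of replicates 1 and 2 only, the sort marker Icam1 and the chemokine gene Ccl2 rose. Sod2, the mitochondrial superoxide dismutase, fell. Ccl2 was 2.9 and 12.9 CPM in E-CAD+ 2NG- and 40.5 and 60.9 CPM in E-CAD+ 3NG- replicates 1 and 2, with a log2 fold change of 2.26 ± 0.38 (adjusted p = 0.0014). Lcn2, encoding the iron-scavenging lipocalin, had no reads in the 3 E-CAD+ 2NG- libraries and 2.12 to 6.67 CPM in E-CAD+ 3NG- cells, and did not pass (adjusted p = 0.48).

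Of 19 tested interferon and antigen presentation genes, 14 lay above 0 over 12 libraries, with a median of 0.42. Using replicates 1 and 2 only, 2 of 20 passed, Ifitm1 and Ifitm3, membrane proteins that are also high in ESCs. Ifitm3 was 125 and 123 CPM in E-CAD+ 2NG- and 501 and 602 CPM in E-CAD+ 3NG- replicates 1 and 2, and 388 against 607 CPM in replicate 3. Its log2 fold change with replicates 1 and 2 only was 1.37 ± 0.20 (adjusted p = 3.7e-04). Irf9 and Tap1, both downstream of interferon, had 1.18 ± 0.35 and 2.02 ± 0.67 over 12 libraries without passing (adjusted p of 0.48 and 0.53). Tap1 was below 12 CPM in each of the 12 libraries. Of 16 tested AP-1 and immediate early genes, 13 lay above 0 with a median of 0.57, and Fos passed with replicates 1 and 2 only (1.05 ± 0.25, adjusted p = 0.031).

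**Figure D3:**
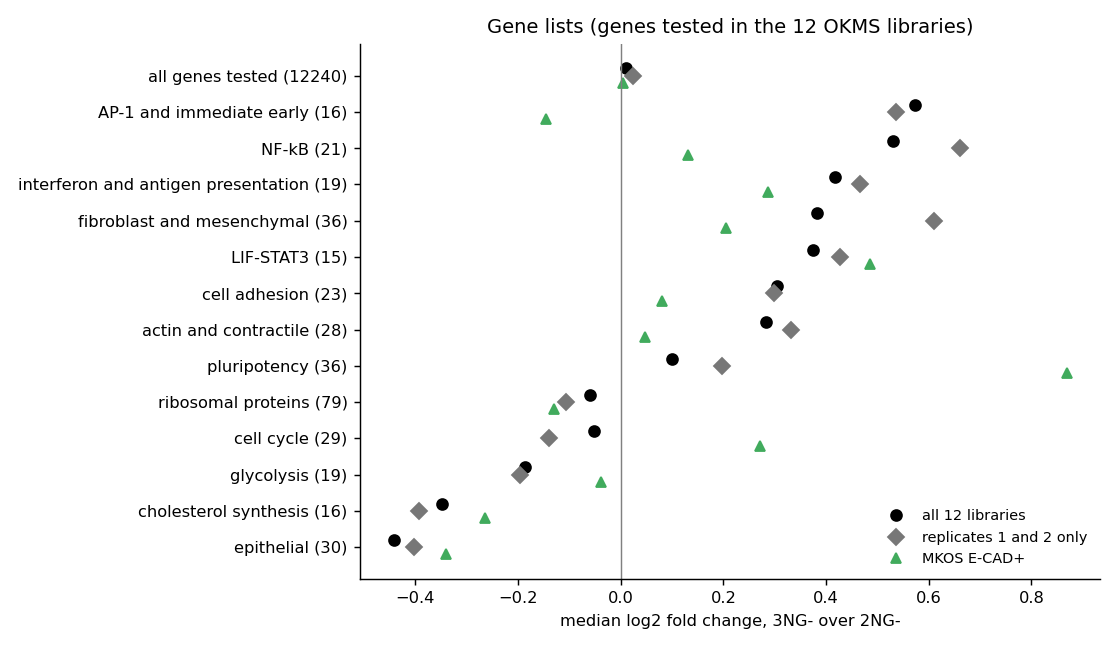
Median log2 fold change (3NG- over 2NG-) of each gene list over the 12 OKMS libraries, in OKMS replicates 1 and 2 only, and in MKOS E-CAD+ cells, with the number of genes tested over the 12 libraries in brackets. The median of all genes is 0.01, and of the lists drawn the AP-1 list is highest at 0.57 and the epithelial list lowest at -0.44 over the 12 libraries.

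Matrix and mesenchymal genes lay mostly above 0. Of 36 tested fibroblast and mesenchymal genes 28 lay above 0 over 12 libraries, with a median of 0.38 and none called. Their median was 0.61 with replicates 1 and 2 only and 6 rose (Vim, Cyr61, Timp1, Sparc, Col3a1 and Tgfbi), with none lower. Serpinh1, the collagen chaperone HSP47, was 153, 113 and 133 CPM in E-CAD- 2NG- and 269, 219 and 228 CPM in E-CAD- 3NG- cells, and 47, 53.8 and 78.1 against 141, 132 and 89.9 CPM in E-CAD+ cells. The Serpinh1 log2 fold change was 0.88 ± 0.16 (adjusted p = 0.11, and 0.0055 with a term for replicate 3). Fbn2, the microfibril protein fibrillin 2, was 26.8, 22.7 and 45.5 CPM in E-CAD- 2NG- and 83.4, 78.4 and 124 CPM in E-CAD- 3NG- cells. The E-CAD+ values were 1.19, 0.322 and 5.01 CPM in 2NG- and 22.8, 33.6 and 9.42 CPM in 3NG-. For Fbn2 it was 2.18 ± 0.42 (adjusted p = 0.12, and 0.0049 with a term for replicate 3). The membrane protein genes Tmem176b (1.70 ± 0.33, adjusted p = 0.12) and Emp3 (1.10 ± 0.24, adjusted p = 0.20) did not overlap between gates within either E-CAD state. They were picked by small p-values in these libraries, so this separation is not further evidence. How many of all genes separate in this way was not counted. Both passed with a term for replicate 3 (adjusted p = 0.0055 and 0.020) and with replicates 1 and 2 only (8.2e-04 and 0.012). Vim, the intermediate filament protein of mesenchyme, was 47.7 and 114 CPM in E-CAD+ 2NG- and 273 and 247 CPM in E-CAD+ 3NG- replicates 1 and 2, and 92 against 98.4 CPM in replicate 3.

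The genes with the smallest p-values in replicates 1 and 2 only are named after their values were seen. Egfl6, a secreted matrix protein with EGF repeats, was 30.7 and 7.55 CPM in E-CAD- 2NG- and 115 and 115 CPM in E-CAD- 3NG- cells. In E-CAD+ cells it was 7.5 and 8.38 against 98.2 and 91.6 CPM, while E-CAD+ replicate 3 showed 3.95 and 2.83 CPM. Its log2 fold change with replicates 1 and 2 only was 2.94 ± 0.30, and over 12 libraries 2.87 ± 0.69 (adjusted p = 0.28). OKMS MEFs held 2.52 ± 3.6 CPM and wild-type MEFs 12.3 ± 5.4 CPM of Egfl6 (SD, n = 2 each). Grb10, an imprinted adaptor that restrains insulin and IGF receptors, rose by 1.75 ± 0.20, Mgst1, a microsomal glutathione transferase, by 1.24 ± 0.16, Ccnd2, encoding cyclin D2, by 1.10 ± 0.16 and Gpx3, a secreted glutathione peroxidase, by 2.39 ± 0.31 on the log2 scale, with replicates 1 and 2 only. None of these 4 passed over 12 libraries. Ccnd2 in E-CAD+ cells was 186 and 189 CPM in 2NG- and 548 and 527 CPM in 3NG- replicates 1 and 2, against 59.6 and 43.6 CPM in replicate 3. Cdkn1a, the p53-responsive cyclin-dependent kinase inhibitor, rose by 0.66 ± 0.12 (adjusted p = 0.0036) with replicates 1 and 2 only. Car4, a carbonic anhydrase that was called there (3.07 ± 0.42), had 317 and 245 CPM in the 2 E-CAD+ replicate 3 libraries, far above its other values, and a log2 fold change of 0.16 ± 0.88 over 12 libraries.

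Wild-type MEFs were in excess in these cultures. All 12 libraries were gated as CD44-, but only 6 of them as E-CAD+. The Cd44 levels of the wild-type MEF libraries, 119 and 65.4 CPM, lay within the range of the 12. How far the gates removed wild-type MEFs was not tested. The cassette also carries an mOrange reporter, by which the paper identifies transgenic cells. The paper does not say whether the cells sorted for RNA were gated on it. None of the 8 fibroblast markers passed over 12 libraries, 5 lay above 0 and their median was 0.26. The 8 fibroblast markers, all with reads in each population, summed to 72.6 to 283 CPM in E-CAD+ 2NG- libraries and 161 to 280 CPM in E-CAD+ 3NG- libraries. In E-CAD- cells the sums were 568 to 714 CPM in 2NG- and 510 to 923 CPM in 3NG-, and the gates overlapped in both states. Of the 110 genes higher in 3NG- cells with replicates 1 and 2 only, 77 (70%) were higher in OKMS MEFs than in TNG OKMS ESCs, beside 18.9% of the genes tested between the gates and 16.2% of the 15630 genes tested between MEFs and ESCs. For 31 of the 110, Egfl6 among them, the mean of the 4 3NG- libraries was above every OKMS and wild-type MEF library (28.2%, beside 36.3% of all genes tested between the gates). Pluripotent markers summed to 654 to 2915 CPM in E-CAD+ 2NG- and 1497 to 5102 CPM in E-CAD+ 3NG- libraries, most of it Dppa5a. Their sums in E-CAD- cells were 141 to 214 CPM in 2NG- and 152 to 209 CPM in 3NG-. Macrophage markers summed to at most 105 CPM in each of the 12. Endothelial markers summed to at most 28.4 CPM, with Pecam1, Cdh5, Tie1 or Kdr without reads in at least 1 population. Tek, the only one that passed the filter on low counts, had a mean of 11.4 CPM in 2NG- and 17.1 CPM in 3NG- libraries and was not called. The part of fibroblast carry-over in the other genes was not tested. In sorted bulk samples a larger share of a cell type cannot be told apart from more RNA per cell.

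Among the genes lower in 3NG- cells, Stmn2, a microtubule-destabilising stathmin best known from neurons, came first with replicates 1 and 2 only. It was 782, 876 and 1600 CPM in E-CAD- 2NG- and 350, 395 and 263 CPM in E-CAD- 3NG- cells. E-CAD+ cells held 456, 582 and 209 CPM in 2NG- and 228, 251 and 203 CPM in 3NG-, where the gates overlapped through replicate 3. Its log2 fold change was -1.31 ± 0.23 (adjusted p = 0.096), and -1.19 ± 0.12 (adjusted p = 4.6e-06) with replicates 1 and 2 only. Mthfd2, the mitochondrial folate enzyme, and Nars, the asparaginyl-tRNA synthetase, were lower in every 3NG- library than in the 2NG- libraries of the same E-CAD state, with -0.90 ± 0.17 (adjusted p = 0.12) and -0.53 ± 0.11 (adjusted p = 0.19). Both were picked by small p-values in these libraries, so their separation is not further evidence. Hmgn5, a nucleosome-binding protein, had -0.69 ± 0.15 (adjusted p = 0.20). Mthfd2, Nars and Hmgn5 passed with a term for replicate 3 (adjusted p = 0.0092, 0.021 and 0.017) and with replicates 1 and 2 only (0.011, 0.031 and 0.043). Rhox6 and D7Ertd143e had -1.89 ± 0.36 and -1.62 ± 0.35, but 7.33% and 9.60% of their reads mapped to a single place, so these values may be shared with close copies.

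Epithelial genes leaned to the 2NG- side in both E-CAD states. Of 30 tested, 2 lay above 0 over 12 libraries (Krt19 and Cdh3), with a median of -0.44 (-0.37 in E-CAD+ and -0.59 in E-CAD- cells), and none passed. In replicates 1 and 2 only, 4 fell: the keratin Krt8, the adhesion molecule Epcam, the tight junction claudin Cldn6 and the trafficking GTPase Rab25. Krt8 was 532, 520 and 276 CPM in E-CAD+ 2NG- and 338, 316 and 255 CPM in E-CAD+ 3NG- cells. In E-CAD- cells it was 67.9, 86.2 and 65.2 against 31.7, 44.6 and 41.4 CPM. Krt8 had a log2 fold change of -0.76 ± 0.16 (adjusted p = 0.18), and -0.90 ± 0.14 (adjusted p = 5.4e-04) with replicates 1 and 2 only. Krtdap, a keratinocyte differentiation product, was 556 and 861 CPM in E-CAD+ 2NG- and 224 and 262 CPM in E-CAD+ 3NG- replicates 1 and 2, and fell by 1.19 ± 0.22 there on the log2 scale. The 4 keratinocyte markers summed to 49.2 to 179 CPM in E-CAD+ 2NG- and 42.6 to 148 CPM in E-CAD+ 3NG- libraries, with Trp63 without reads in the latter.

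Cholesterol synthesis genes had a median of -0.35, with 1 of 16 above 0, and glycolysis genes a median of -0.19, with 3 of 19 above 0. None of either list passed over 12 libraries, and with replicates 1 and 2 only Hmgcs1, the hydroxymethylglutaryl-CoA synthase, fell (-0.63 ± 0.16, adjusted p = 0.046). Of 28 actin and contractile genes 24 lay above 0 (median 0.28), and Tpm1 and Actg2 rose with replicates 1 and 2 only. Cell adhesion genes had a median of 0.31 over 23, and only the sort marker Icam1 was called over 12 libraries. With replicates 1 and 2 only, Cd44 (also a sort marker), Ncam1, Itgb4 and Lgals1 rose as well and Epcam fell. Ribosomal protein genes had a median of -0.06 over 79 genes, mitochondrially encoded genes 0.08 over 29 and cell cycle genes -0.05 over 29. Among cell cycle genes with replicates 1 and 2 only, the replication clamp Pcna fell (-0.52 ± 0.12, adjusted p = 0.035) while Ccnd2 and Cdkn1a rose.

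No gene of the pluripotency list passed between the OKMS gates over 12 libraries. The median over 36 genes was 0.10, with 21 above 0. For the shorter list of 6 pluripotent markers the median was 0.65 with 5 above 0 (0.69 with replicates 1 and 2 only and 0.81 in E-CAD+ cells), again with none called. The gates leaned apart more in E-CAD+ cells (median 0.40) than in E-CAD- cells (-0.01), although this difference was not tested for the list. Dppa5a, an RNA-binding protein of ESCs, was 692, 500 and 2554 CPM in E-CAD+ 2NG- and 1837, 1271 and 4448 CPM in E-CAD+ 3NG- cells, with the gates overlapping. In E-CAD- cells it stayed between 59.6 and 162 CPM. For Dppa5a the log2 fold change over 12 libraries was 0.39 ± 0.42 (adjusted p = 0.93), and the difference between E-CAD states passed with replicates 1 and 2 only (1.43 ± 0.28, adjusted p = 0.015). Utf1, a chromatin factor of undifferentiated cells, fell by 1.48 ± 0.34 on the log2 scale (adjusted p = 0.027) with replicates 1 and 2 only. In E-CAD- cells Utf1 was 19.2, 17.2 and 3.59 CPM in 2NG- and 3.14, 3.49 and 0.544 CPM in 3NG-.

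Within each E-CAD state, 2 genes passed in E-CAD+ cells (Icam1 and Fabp5) and 0 in E-CAD- cells, where 613 had an unadjusted p under 0.05 and DESeq2 called 20. Single libraries moved the E-CAD+ count between 0 and 24, the highest value being without OKMS E-CAD+ 3NG- replicate 3, followed by 8 without OKMS E-CAD+ 2NG- replicate 3, and it was 0 without any of 7 other libraries. With replicates 1 and 2 only, 201 genes (1.65%) passed in E-CAD+ and 36 (0.295%) in E-CAD- cells, and 19 were in both, all with the same sign (9.45% of the first list and 52.8% of the second). Across 12240 genes the gate changes in the 2 states, which share no library, had a Pearson r of 0.16, given as a description since genes are not independent replicates.

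The difference between the 2 gate changes was tested directly. Over 12 libraries 0 genes passed in edgeR, with 384 at an unadjusted p under 0.05 and 1 in DESeq2. Restricting the fit to replicates 1 and 2 gave 20 genes (0.164%), all with a more positive gate change in E-CAD+ than in E-CAD- cells. They included Spink3, Ifitm1, Crabp2, Mgp, Tubb3, Gap43, Ncam1 and Dppa5a, chosen after their values were seen. Crabp2, a retinoic acid-binding protein, was 33.2 and 36.1 CPM in E-CAD+ 2NG- and 174 and 213 CPM in E-CAD+ 3NG- replicates 1 and 2, but 29.1 against 31.5 CPM in replicate 3. The gate changes of the neuronal genes Tubb3 and Gap43 had opposite signs in the E-CAD states. For Tubb3 the size was larger in E-CAD- cells (-2.38 ± 0.32, against 0.92 ± 0.39 in E-CAD+, replicates 1 and 2 only). Tubb3, a neuronal tubulin, was 153, 99.6 and 464 CPM in E-CAD- 2NG- and 25.6, 25.1 and 65.6 CPM in E-CAD- 3NG- cells, whereas E-CAD+ cells held 2.9 to 6.14 CPM in 2NG- and 6.9 to 9.18 CPM in 3NG-. Gap43, a growth cone protein, was 86.5, 51.8 and 240 CPM in E-CAD- 2NG- and 18.3, 31.4 and 61.8 CPM in E-CAD- 3NG- cells, against 0 to 1.69 and 6.43 to 13.4 CPM in E-CAD+ cells. The difference between the gate changes was 3.30 ± 0.50 for Tubb3 (adjusted p = 6.3e-04) and 4.76 ± 0.77 for Gap43 (adjusted p = 0.0015), with replicates 1 and 2 only. The summed neural markers were 156 to 574 CPM in E-CAD- 2NG- and 69 to 97.2 CPM in E-CAD- 3NG- libraries. In E-CAD+ libraries they were 18.4 to 37.7 CPM in 2NG- and 34.1 to 54.9 CPM in 3NG-. Most of the E-CAD- 2NG- sums was Tubb3 itself, so they are not separate from its change. The other neural markers tested, Nes and Sox1, had -0.82 and -0.67 in E-CAD- cells over all replicates, neither called. The part of a neuron-like fraction in these changes was not tested.

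**Figure D4:**
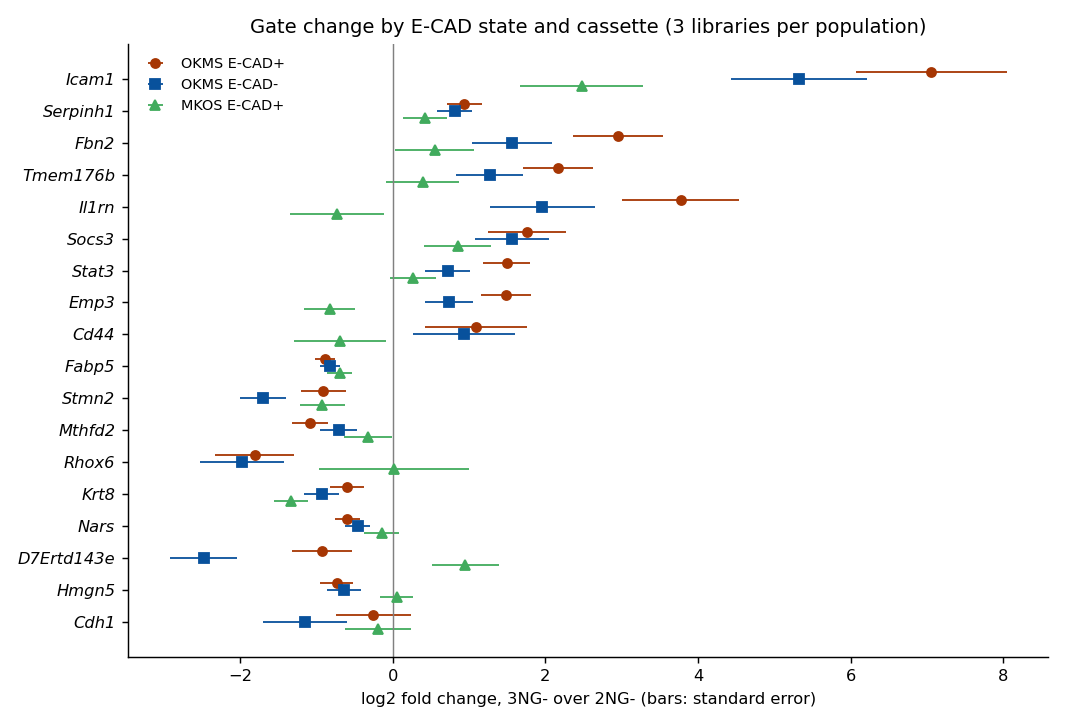
Log2 fold change (3NG- over 2NG-) with its standard error for 18 genes in OKMS E-CAD+, OKMS E-CAD- and MKOS E-CAD+ cells, from 3 libraries per population and gate. Icam1 is highest in OKMS in both states (7.06 and 5.32), Fabp5 lies between -0.89 and -0.69 in all 3, and Il1rn, Emp3 and Cd44 lie on opposite sides of zero in OKMS and MKOS.

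The same gates in MKOS E-CAD+ cells gave 6 called genes of 13392 (0.0448%), 4 higher (Rpl39l, Gsta4, Siva1 and Msi2) and 2 lower (Cd24a and Krt8), a count that ranged from 2 to 35 when single libraries were left out of the fit. It was 35 and 22 without the OKMS E-CAD+ 3NG- and 2NG- replicate 3 libraries, which share the estimate of spread, 13 and 2 without MKOS 2NG- replicates 3 and 1, 12 without OKMS E-CAD+ 2NG- replicate 1, and 3 without MKOS 2NG- or 3NG- replicate 2. Icam1 was 3.98, 0 and 4.34 CPM in MKOS 2NG- and 12.4, 17.2 and 20.4 CPM in MKOS 3NG- libraries, so the MKOS 2NG- level was not at the floor in 2 of 3. Fabp5 was lower in MKOS 3NG- cells as well (-0.69 ± 0.16, adjusted p = 0.12, and 0.0054 with replicates 1 and 2 only). Krt8 fell in MKOS (-1.33 ± 0.22, adjusted p = 0.026), from 846, 915 and 572 to 379, 327 and 274 CPM. In MKOS replicates 1 and 2 only, 132 of 13334 genes (0.99%) passed, and 19 of these were among the 153 of OKMS (14.4% and 12.4% of the lists), 14 with the same sign. Pluripotency genes had a median of 0.87 in MKOS, beside 0.40 in OKMS E-CAD+ cells. Sox2 rose in MKOS with replicates 1 and 2 only (1.37, adjusted p = 0.020), from 43.4 and 28 to 87.8 and 104 CPM. In the same replicates of OKMS E-CAD+ cells it was 31.7 and 29 CPM in 2NG- and 54.4 and 34.3 CPM in 3NG-. Over 3 replicates of OKMS E-CAD+ cells its log2 fold change was 0.46 ± 0.41, a value not matched to the MKOS one. Whether reads from either cassette are counted with Sox2 was not tested.

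The difference between cassettes in the E-CAD+ gate change was tested over 18 libraries. It called 0 genes in edgeR, with 689 at an unadjusted p under 0.05 and 14 in DESeq2. With replicates 1 and 2 only it called 105 (0.787%), of which 79 had the more positive change in OKMS. Il1rn differed by 5.0 (adjusted p = 1.8e-04), Fbn2 by 4.52 (adjusted p = 5.9e-04) and Emp3 by 2.92 (adjusted p = 1.8e-05) on the log2 scale, and Cd44 by 1.91 (adjusted p = 0.0093). In OKMS E-CAD+ 2NG- replicates 1 and 2, Il1rn had only 8 and 7 reads and Fbn2 7 and 1, so these sizes are uncertain. The level of Emp3 was higher in MKOS in both gates. In replicates 1 and 2 it was 234 and 203 CPM in MKOS 2NG- and 136 and 107 CPM in MKOS 3NG-. The OKMS E-CAD+ values were 10.9 and 16.4 CPM in 2NG- and 46.5 and 66.2 CPM in 3NG-. Emp3 fell short of the threshold in MKOS in the other direction (-0.90, adjusted p = 0.054). On the other side, Gsta4, a glutathione transferase, differed by -2.04 (adjusted p = 3.1e-05). Gsta4 was 941 and 736 CPM in OKMS E-CAD+ 2NG- and 803 and 697 CPM in OKMS E-CAD+ 3NG- replicates 1 and 2, and its log2 fold change in MKOS was 1.82. Over all replicates none of these differences passed.

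**Figure D5:**
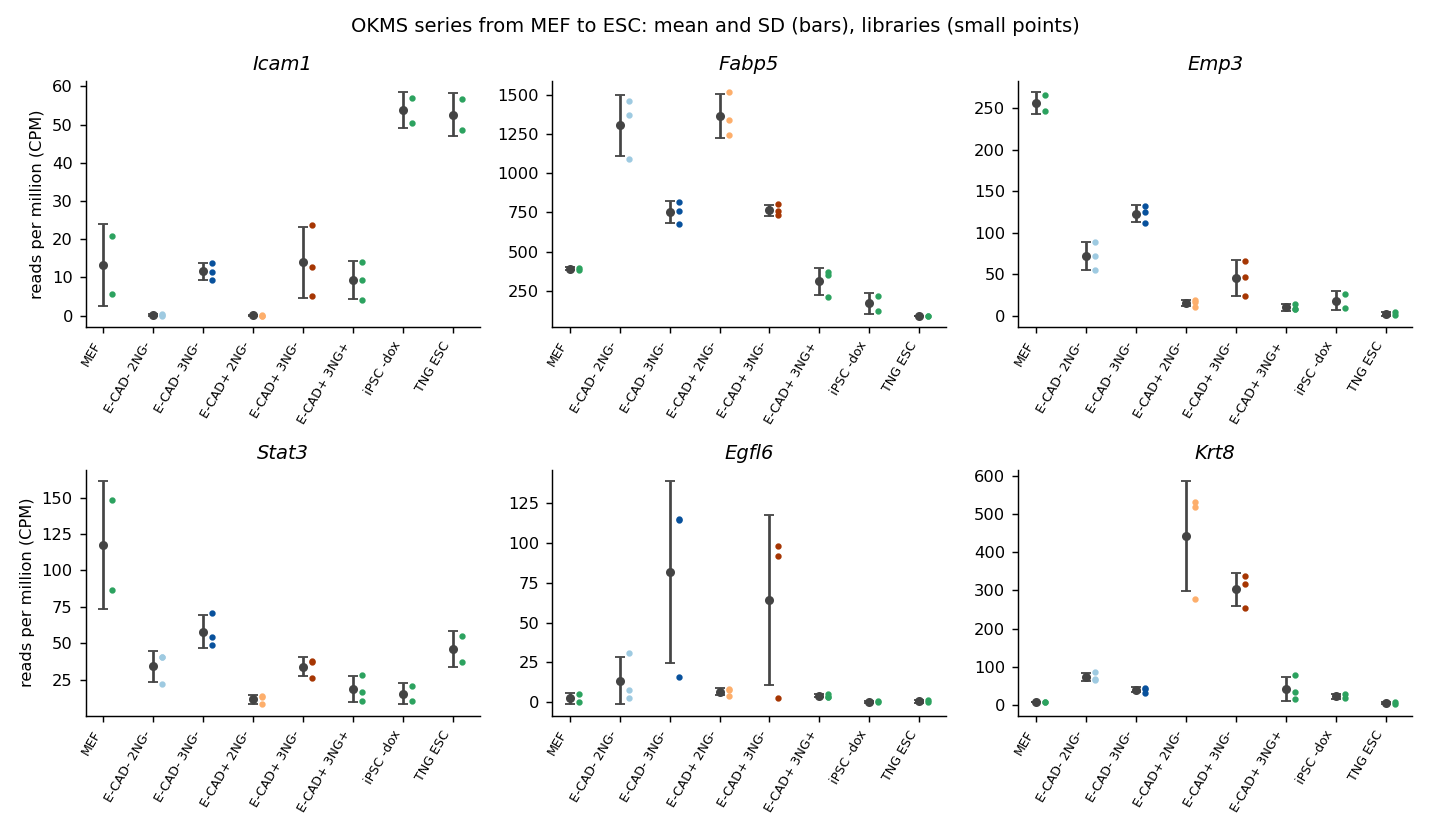
Levels in CPM of 6 genes in OKMS MEFs, the 4 Nanog-GFP- populations, E-CAD+ 3NG+ cells, iPSCs without doxycycline and TNG OKMS ESCs, with mean and SD (2 or 3 libraries) and small points for libraries. Icam1 is highest in iPSCs and ESCs, Fabp5 highest in the 2NG- populations, Emp3 and Stat3 highest in MEFs, and Egfl6 highest in the 3NG- populations.

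Along the path from fibroblast to ESC these genes took different courses. Icam1 was 13.2 ± 11 CPM in OKMS MEFs (SD, n = 2), 9.27 ± 5.0 CPM in OKMS E-CAD+ 3NG+ cells (n = 3) and 52.7 ± 5.7 CPM in TNG OKMS ESCs (n = 2), so that every 3NG- library, at 5.18 to 23.8 CPM, was below both TNG OKMS ESC libraries. The parental TNG ESCs, at 21.6 and 9.85 CPM of Icam1, and 1 of 2 TNG MKOS ESC libraries, at 17.7 CPM, lay within the 3NG- range. Fabp5 was 391 ± 10 CPM in MEFs, 312 ± 86 CPM in 3NG+ cells and 91.9 ± 0.9 CPM in ESCs, below all 12 Nanog-GFP- libraries at each of these stages, while the 2 wild-type MEF libraries held 626 and 717 CPM, one below and one within the range of the 12. Socs3 was 35.4 ± 7.0 CPM in MEFs, 4.37 ± 2.9 CPM in 3NG+ cells and 49.5 ± 4.1 CPM in ESCs. Emp3 was 256 ± 13 CPM in MEFs and 2.61 ± 2.5 CPM in ESCs, and Serpinh1 735 ± 85 and 3.91 ± 1.3 CPM. Of the 43 genes lower in 3NG- cells with replicates 1 and 2 only, 26 (60.5%) were higher in ESCs than in MEFs and 6 (14%) higher in MEFs, beside 20.9% and 18.9% of the genes tested between the gates. Over 15630 genes, 18.3% were called higher in ESCs.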

How the data were processed

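The series holds 48 single-end STRT RNA-seq libraries, a method that reads the 5′ ends of transcripts, of which 12 carry the main comparison. Read counts per transcript were deposited by the authors, not normalised and not pooled. Per the labels, reads were aligned with Bowtie 0.12.7 to mm10, whereas the methods name mm9. The positions in the table are those of mm10, since 99.4% of 20698 symbols shared with RefSeq GRCm38.p6 lay within 5000 bases of the gene. Reads with several positions were given to the most 5′ exonic one and counted, so close copies can share reads, and no molecular identifiers were used. Intervals and floors therefore cover counting error only.

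The 24264 transcript rows were used, and 1554 repeat and 104 spike-in rows were left out. All of the table's value columns were matched to samples by title. Genes were filtered by filterByExpr, TMM-normalised and tested with the quasi-likelihood test of edgeR 4.0.16 in R 4.3.3, with E-CAD and gate as terms. Changes within each E-CAD state and their difference used 4 population means, the MKOS contrasts 18 libraries, and the ESC against MEF contrast all 48. A gene was called at a Benjamini-Hochberg adjusted p of at most 0.05. Standard errors were taken from the F statistic. Alternatives were DESeq2 1.42.0, its size factors, no filter, a replicate block, all libraries fitted, no E-CAD term, no mitochondrial genes and each library left out, and, chosen after seeing the data, replicates 1 and 2 only and a term for replicate 3. Scripts were tested on simulated data. CPM were computed from reads on transcripts.

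Named genes were the sort markers, the cassette factors, the called genes (up to 14 per direction), the next smallest p-values up to 8 per direction, list members called, and the first 4 per direction called in either difference test. Up to 8 more per direction from replicates 1 and 2, list members called there, the first 4 per direction of both difference tests there, Tubb3, Gap43, Tap1, Irf9, Lcn2 and Dppa5a were added after their values were seen. The comparison and the lists were chosen with earlier results of these data known. Lists are described by counts and medians, with no test. Promoter sequences are from RefSeq GRCm38.p6.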

Additional observations from a re-analysis of the deposited data

Results flagged for a closer look

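Values within each gate's 6 libraries were searched for single libraries that stood apart by Dixon's test on log2(CPM + 0.5), or on library measures, over 52 groups. Chance flags about 1 in 20 such groups. Of the 6 results found, 3 concerned OKMS E-CAD+ 3NG- replicate 3. That library held 9.18 CPM of Cd44 where the other 3NG- libraries held 96.1 to 159, 13.7 CPM of Myc where they held 59.8 to 81.6, and 2.83 CPM of Il1rn where they held 21.9 to 55.6. Nars in OKMS E-CAD+ 3NG- replicate 1 was 317 CPM, above the 216 to 249 CPM of the other 3NG- libraries. OKMS E-CAD+ 2NG- replicate 3 was the deepest 2NG- library with 14174725 reads on transcripts, where the others held 2912757 to 6133070. Reads on repeats made up 26.6% of OKMS E-CAD- 3NG- replicate 3 and 15.8% to 19.7% of the other 3NG- libraries. What sets these libraries apart was not tested.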

How the results depend on the processing

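For OKMS 3NG- against 2NG-, E-CAD+ cells, E-CAD- cells, their difference, MKOS and the cassette difference, in that order, the genes called were 54, 28, 20, 1, 84 and 14 with DESeq2, and 59, 50, 42, 10, 85 and 15 without the filter on low counts. They were 13, 6, 7, 2, 61 and 3 with all libraries fitted, 153, 201, 36, 20, 132 and 105 with replicates 1 and 2 only, and 53, 12, 15, 2, 73 and 3 with a term for replicate 3. With DESeq2 size factors in edgeR E-CAD+ cells gave 1. E-CAD+ against E-CAD- gave 1313 with DESeq2. Leaving out single libraries gave 2 to 25, 0 to 24, 0 to 1, 0 to 1, 2 to 35 and 0 to 6. The causes were not tested.

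With a replicate block the counts were 50, 17, 14, 2, 81 and 3, and 1292 for E-CAD+ against E-CAD-. The numbers were not taken to pair the samples: of 18 same-number pairs, 13 had deviations correlated over 0.1 (range 0.072 to 0.378), and 11 of 12 libraries were closest to their own number, a hint from the data and not the design.

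Of 483 values of named genes under alternatives, 394 stayed on their side of the threshold, 88 passed only under the alternative and 1 was lost, and none called in either changed sign. Of 335 list medians, 334 moved by less than the spread between replicates. The mitochondrial list has no value without mitochondrial genes. Genes near 1 CPM, such as Icam1 in 2NG- cells, are limited by depth.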
